A study of Mus musculus with 9 samples.

Results

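The genes examined here, most of which encode nuclear subunits or assembly factors of respiratory complex I, were measured in mouse striatum after the neurotoxin MPTP. They were taken as the probe sets with exactly 1 gene symbol in the platform annotation and a symbol starting with Nduf. That gave 48 probe sets of 43 genes, out of 19935 genes with such a probe set on the array. Where a gene had several probe sets, the one with the highest mean over the 9 arrays stood for it. All 43 lay above the filter on dim probe sets. Ndufa4, now placed in complex IV, and its paralogue Ndufa4l2 are among them and enter all counts and medians of the Nduf genes.

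Complex I, NADH:ubiquinone oxidoreductase, takes electrons from NADH in the mitochondrial matrix, passes them along flavin and iron-sulfur clusters to ubiquinone, and pumps protons across the inner membrane. Its matrix arm holds the electron path and its membrane arm the proton channels, and a set of assembly factors that are not part of the finished enzyme puts the pieces together. MPTP is turned into MPP+ by monoamine oxidase B, chiefly in glia, and the dopamine transporter carries MPP+ into dopamine neurons, where it blocks complex I near its ubiquinone site. The cell bodies of those neurons lie in the midbrain and mainly their axons reach the striatum, so RNA from a piece of striatum comes chiefly from resident neurons and glia.

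Total RNA of striatum was hybridised to 9 arrays, 3 for each of 3 groups. Mice of the acute MPTP group received 4 injections 2 h apart at 20 mg/kg and were sampled 1 week later. Those of the chronic MPTP group received 4 mg/kg once a day for 20 days and were sampled after 8 weeks, with a total dose of 80 mg/kg in both regimens. The control group received 4 injections of saline 2 h apart and was sampled after 1 week, so regimen and time after treatment change together whenever chronic MPTP is compared. Strain, sex and age are not stated in the labels, and the labels do not say that each array is a separate animal, so p-values measure only the spread between these samples, which may be technical. In such bulk tissue fewer cells of a type and less RNA per cell cannot be told apart.

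Striatal marker genes were bright on all arrays (a median log2 intensity of 11.72 over 10 genes of projection neurons), but marker genes of neighbouring tissue differed between arrays. The mean of 11 cortex genes, as a deviation from each gene's mean on the log2 scale, was 1.12 on control 1, 0.70 on acute 1 and 0.95 on acute 2, and between -0.69 and -0.35 on the other 6 arrays. That of 9 choroid plexus genes was 1.05 on control 3 and 1.88 on acute 3, and between -0.77 and 0.12 elsewhere. That of 10 genes of the thalamus and hypothalamus was 1.495 on control 3 and 0.87 on acute 3, and between -0.81 and 0.12 elsewhere. The projection neuron genes themselves ran from -0.52 to 0.07 in the controls, from -0.04 to 0.10 after acute MPTP and from 0.18 to 0.36 after chronic MPTP.

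None of the 43 Nduf genes passed the threshold of 0.05 in any of the 3 comparisons after Benjamini-Hochberg adjustment over all 16335 probe sets tested (limma). The share of all probe sets that passed was 0% in acute MPTP against control, 0% in chronic MPTP against control and 0.0122% in chronic against acute MPTP, the last being Nr4a1 and Arc, both activity-dependent neuronal genes. At an unadjusted p under 0.05 the counts of Nduf genes were 0, 3 and 4 in these comparisons, where the shares of all probe sets were 0.851% (0.416% higher, 0.435% lower), 5.51% (2.85% higher, 2.66% lower) and 5.12% (2.36% higher, 2.76% lower). With the replicate number as a block the last 2 counts were 7 and 8, against 13% and 13.9% of all probe sets, and the count of Nduf genes past the adjusted threshold was again 0.

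The 95% intervals of the fit bound the change of each gene. In acute and in chronic MPTP against control the 95% interval lay within 2-fold in either direction for 43 of 43 Nduf genes. The same held for 98% and 96.5% of all probe sets. The interval lay within 1.5-fold for 39 and 36 of the Nduf genes, shares of 90.7% and 83.7%, against 87.3% and 81.4% of all probe sets. In chronic against acute MPTP 42 of 43 (97.7%) lay within 2-fold, against 97.2% of all probe sets. The exception was Ndufa6, with a log2 interval from -1.09 to 0.46. Within 1.5-fold lay 36 (83.7%), against 81.6% of all. The median half-width of these intervals was 0.31 on the log2 scale, and the narrowest and the widest were 0.18 and 0.77.

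**Figure D1:**
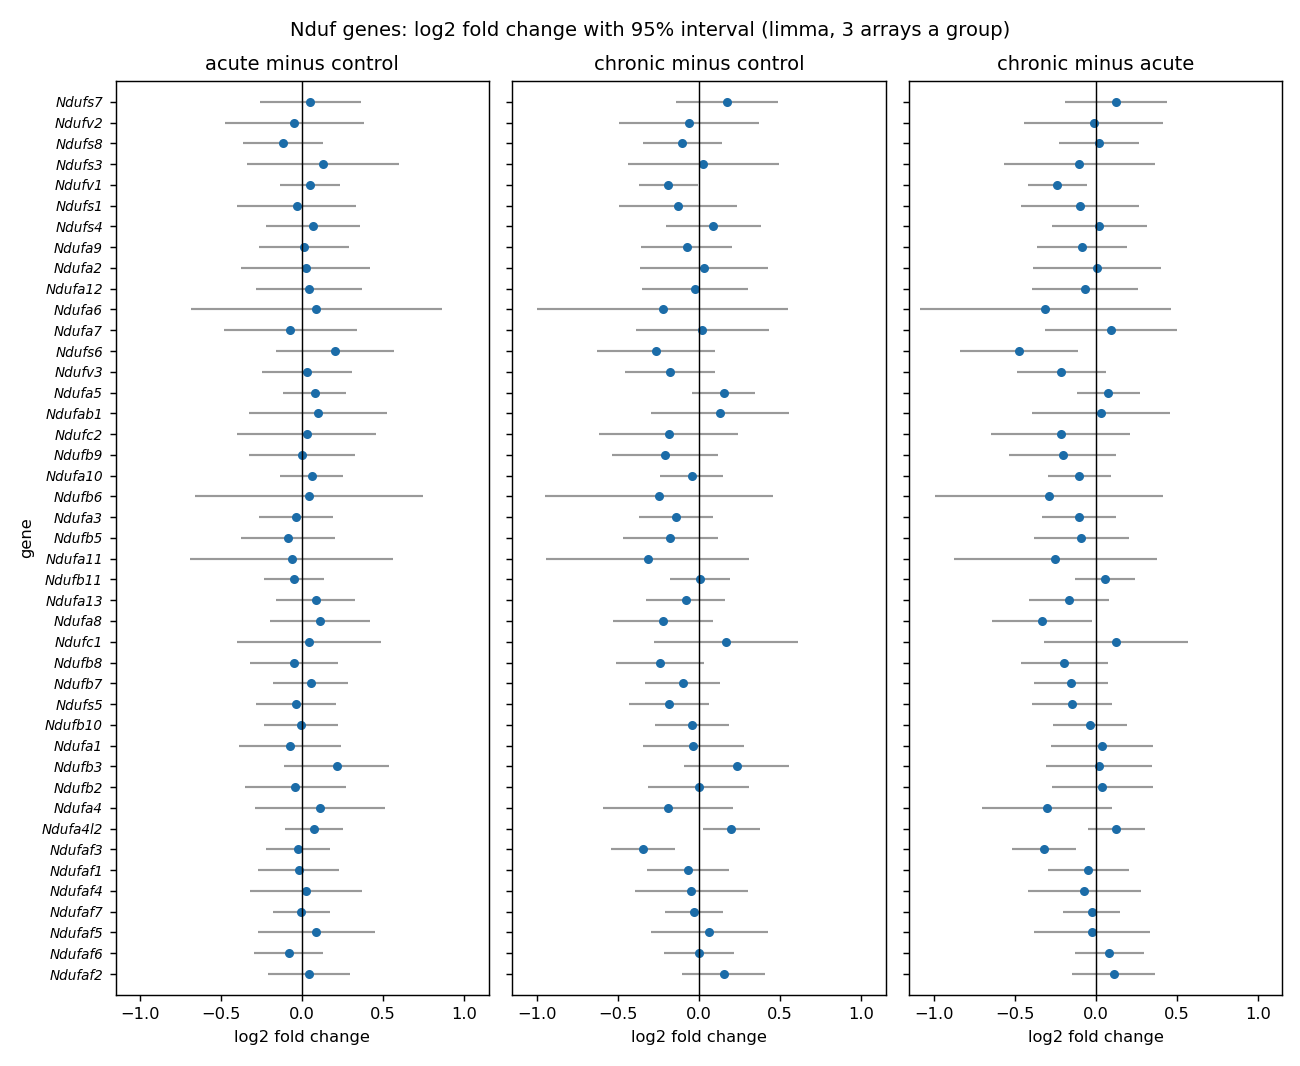
Log2 fold change of each of the 43 Nduf genes (points) with its 95% interval (lines) from limma with 3 arrays a group, in the 3 comparisons, ordered by the part of the enzyme. The points of acute minus control lie between -0.12 and 0.21, and the 43 intervals of the first and of the second panel all stay between -1 and 1.

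In acute MPTP against control the Nduf genes lay close to 0, with 25 of 43 above and 18 below, a median log2 fold change of 0.029 and extremes of -0.12 and 0.21. Over all probe sets 51.5% were above 0 and the median was 0.004. The median of the Nduf genes turned to -0.0071 without control 3 and to -0.023 with the cortex and the thalamus lists as covariates. Groups did not overlap for 1 gene, Ndufv1, which was higher, against 3.56% of all probe sets (2.06% higher, 1.49% lower). Among the genes with the smallest p were Ndufb3, a small membrane arm subunit, at 0.21 ± 0.14 (standard error, 3 arrays a group), and Ndufs6, a zinc-binding subunit of the matrix arm, at 0.20 ± 0.16. On the lower side stood Ndufs8, a core subunit that carries iron-sulfur clusters, at -0.12 ± 0.11, and Ndufaf6, an assembly factor, at -0.08 ± 0.10. Each of these 4 genes had an adjusted p of 1 in limma.

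In chronic MPTP against control 29 of 43 Nduf genes lay below 0 and 14 above, where 53.2% of all probe sets lay below and 46.7% above. Their median was -0.062, against -0.011 for all probe sets tested. In chronic against acute MPTP, a comparison that shares the chronic arrays with the former, 28 of 43 lay below 0 and 15 above, against 53.9% and 46.1% of all, with a median of -0.071 against -0.014. Single arrays moved these medians but did not turn their sign: they were -0.033 and -0.041 without chronic 2, -0.108 and -0.130 without chronic 1, and in chronic against control -0.035 without control 2 and -0.108 without control 3. With the 2 tissue lists as covariates the medians were -0.167 and -0.136, and 7 and 6 of 43 genes (16.3% and 14%) lay above 0. In that fit 48.9% and 46.2% of all probe sets lay above 0, with medians of -0.0038 and -0.014. Leaving out the 3 arrays high in cortex markers (control 1, acute 1 and acute 2) leaves acute 3 as the only acute array. Acute 3 is itself high in choroid plexus markers. The medians of the 3 comparisons were then 0.019, -0.064 and -0.031. Without the 2 arrays high in choroid plexus markers they were 0.0046, -0.108 and -0.063. Among 7857 probe sets with a mean at or above the lowest quartile of the Nduf means, 47.2%, 49.2% and 51.2% lay above 0 in the 3 comparisons, with medians of -0.0068, -0.0032 and 0.0042. No test of the list was made.

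Array by array, the mean deviation of the 43 genes was 0.01, 0.08 and -0.05 in the controls, 0.06, 0.04 and 0.01 after acute MPTP and 0.04, -0.14 and -0.06 after chronic MPTP. The group ranges overlap, and chronic 2 stands lowest. On that array 16 of 43 genes had their lowest value of the 9 arrays, and on each other array between 1 and 7 did. All probe sets were not counted in this way. The mean of 36 genes of complexes II to V was lowest on the same array, at -0.14, and was 0.05 and -0.08 on chronic 1 and chronic 3. The mean of all probe sets tested stayed between -0.03 and 0.02 on every array. On chronic 2 the oligodendrocyte list was also lowest of the 9 arrays at -0.41 (7 genes), as was the astrocyte list at -0.24 (8 genes), and their part in the Nduf values was not tested.

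**Figure D2:**
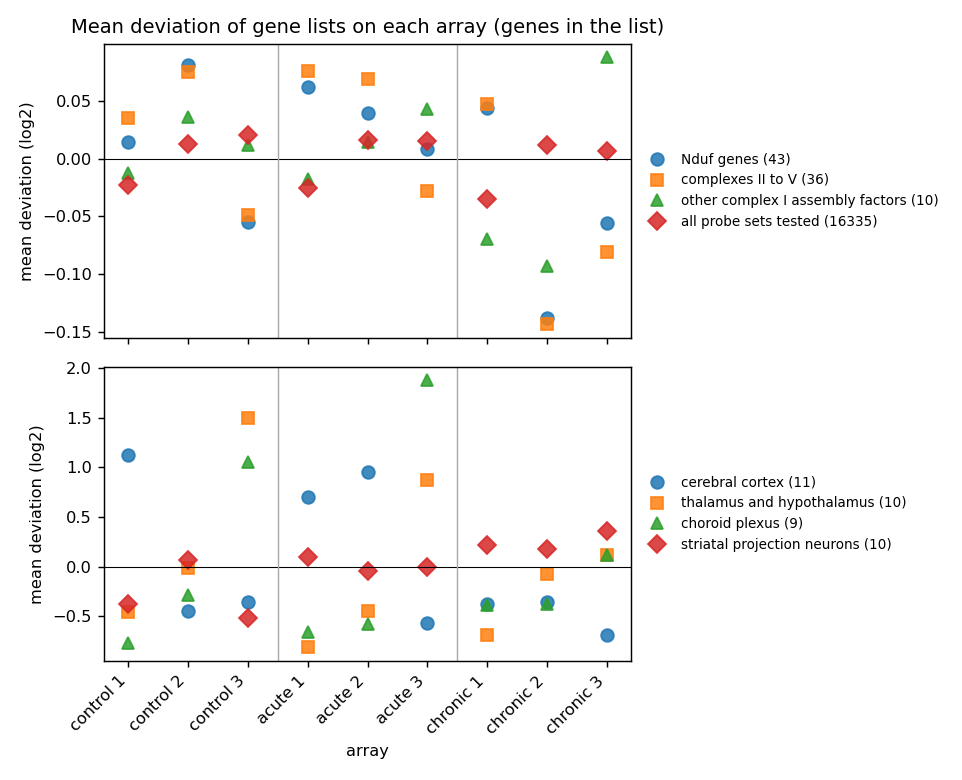
Mean deviation from each gene's own mean (log2) on the 9 arrays, for 4 gene lists of the respiratory chain and background (upper) and 4 lists of neighbouring tissue and striatal neurons (lower), with the number of genes in brackets. The Nduf genes and complexes II to V lie on the same side of 0 on every array but acute 3 (0.009 and -0.028). Both lie lowest on chronic 2 (-0.14 for both), on a scale far smaller than that of the tissue lists.

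The start regions of the Nduf genes were read from RefSeq (mouse build GRCm38.p6), 250 bases before to 50 after the start of transcription, for the 38 of 43 genes that matched (all but Ndufa2, Ndufa4l2, Ndufaf6, Ndufb9 and Ndufs1). Those of the 4 genes with an unadjusted p under 0.05 in chronic against acute MPTP are shown, to set side by side genes with lower values in the same comparison, though none passed the adjusted threshold. Capitals mark matches, on either strand, to GCATGCGC (NRF1, a regulator of nuclear genes for mitochondria), CCGGAAG (the ETS family, to which GABPA belongs), AAGATGG (YY1), AAGGTCA (the ERR family), CCAAT (NF-Y), GGGCGG (the SP family), TGACGTCA (CREB) and TATAAA (the TATA box), each printed 5′ to 3′ on the strand of the gene.
Ndufaf3, chr9:108567387-108567686, minus strand: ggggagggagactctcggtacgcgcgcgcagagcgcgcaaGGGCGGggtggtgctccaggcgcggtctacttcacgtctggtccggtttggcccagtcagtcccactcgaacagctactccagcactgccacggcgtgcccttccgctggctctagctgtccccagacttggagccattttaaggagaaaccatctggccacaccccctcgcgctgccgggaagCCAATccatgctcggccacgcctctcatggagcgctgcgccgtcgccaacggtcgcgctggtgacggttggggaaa
Ndufv1, chr19:4012706-4013005, minus strand: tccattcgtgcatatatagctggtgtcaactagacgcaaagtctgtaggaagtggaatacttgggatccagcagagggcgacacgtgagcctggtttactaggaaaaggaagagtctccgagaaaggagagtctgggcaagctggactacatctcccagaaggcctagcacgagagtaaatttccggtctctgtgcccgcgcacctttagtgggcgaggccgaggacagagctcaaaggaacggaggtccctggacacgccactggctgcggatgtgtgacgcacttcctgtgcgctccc
Ndufs6, chr13:73328433-73328732, minus strand: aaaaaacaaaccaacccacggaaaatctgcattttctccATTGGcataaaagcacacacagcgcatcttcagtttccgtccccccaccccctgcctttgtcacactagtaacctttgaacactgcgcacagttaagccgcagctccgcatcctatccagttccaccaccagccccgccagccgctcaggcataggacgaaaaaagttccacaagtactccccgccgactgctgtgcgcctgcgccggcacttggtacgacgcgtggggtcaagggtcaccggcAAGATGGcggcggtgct
Ndufa8, chr2:36049289-36049588, minus strand: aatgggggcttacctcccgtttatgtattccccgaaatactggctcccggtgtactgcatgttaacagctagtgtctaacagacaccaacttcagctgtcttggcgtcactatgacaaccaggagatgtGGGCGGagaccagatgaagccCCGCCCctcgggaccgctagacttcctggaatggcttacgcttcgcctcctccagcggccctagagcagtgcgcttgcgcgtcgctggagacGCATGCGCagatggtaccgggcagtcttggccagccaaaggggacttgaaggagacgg

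No motif of the list was in all 4 windows. Ndufaf3 holds CCAAT at position -26 from the start and GGGCGG, Ndufs6 holds AAGATGG at position 34, in the transcribed part, and CCAAT on the other strand, and Ndufa8 holds GCATGCGC at position -8 and GGGCGG on both strands. Ndufv1 holds none of the 8. In the shares that follow, a gene with several start windows counted if any of them held the motif. Over the 38 genes, GCATGCGC was in 5, or 13.2%, against 5.24% of 11792 genes tested on the arrays and 3.05% of 27025 genes in the table. AAGATGG was in 7, or 18.4% (7.75% and 7.28%), and TGACGTCA in 3, or 7.89% (3.27% and 2.03%). CCGGAAG was in 5, or 13.2% (16.8% and 9.93%), GGGCGG in 19, or 50% (65.2% and 38.2%), CCAAT in 12, or 31.6% (41.6% and 41.1%), AAGGTCA in 2, or 5.26% (4.06% and 5.38%), and TATAAA in 4, or 10.5% (9.34% and 15.7%).

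These windows had a median observed over expected CpG ratio of 0.83, against 0.75 for genes tested and 0.41 for all genes of the table. Their median GC content was 59.3%, against 61.5% and 53.3%. For a gene with several windows the highest value was taken. In 11 of 38 genes, or 28.9%, another gene starts within 1000 bases upstream on the other strand, against 17.4% of tested genes and 12.3% of all. Ndufs3 and Kbtbd4 start 19 bases apart, Ndufa11 and Vmac 63, and Ndufa8 and Morn5 135. These matches describe letters in a window and were not set against the measurements.

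By the roles of the subunits, the core of the matrix arm comes first. The nuclear core subunits hold the flavin and the chain of iron-sulfur clusters, and the 6 described here are Ndufv1, Ndufv2, Ndufs1, Ndufs3, Ndufs7 and Ndufs8. Their median log2 fold change was 0.0072 in acute against control, -0.082 in chronic against control and -0.055 in chronic against acute, and 1 of 6, Ndufv1, had an unadjusted p under 0.05 in each of the last 2, where 5.51% and 5.12% of all probe sets did. Each sign depended on single arrays: the medians turned to -0.053 without control 3, to 0.0011 without control 1 and to 0.030 without chronic 2, in that order of comparisons. Leaving out 1 array turned the first also without control 2 or acute 1, and the last also without acute 1 or chronic 3.

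Ndufv1 binds the flavin and accepts the electrons of NADH. Its log2 intensity was 10.51, 10.51 and 10.52 in the controls, 10.53, 10.59 and 10.56 after acute MPTP and 10.44, 10.23 and 10.30 after chronic MPTP. The 3 chronic arrays lay below all others, and the 3 acute arrays lay just above the 3 controls (lowest acute value 10.527, highest control 10.518). Control 1 and control 2 hold exactly the same deposited value, and the control SD was 0.003. The log2 fold change was -0.19 ± 0.08 in chronic against control, 1.14-fold lower (adjusted p = 0.899 in limma), and -0.24 ± 0.08 in chronic against acute MPTP (adjusted p = 0.877). For acute against control it was 0.05 ± 0.08 (adjusted p = 1). Leaving out single arrays gave -0.25 to -0.14 and -0.30 to -0.19 for the former 2 comparisons.

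Ndufs7 carries the last iron-sulfur cluster of the chain and lines the pocket where ubiquinone binds. It lay at 12.01, 12.42 and 12.27 in the controls, 12.11, 12.41 and 12.33 after acute MPTP and 12.19, 12.52 and 12.51 after chronic MPTP. In each group the array numbered 1 was the lowest and the groups overlapped. The change in chronic against acute MPTP was 0.12 ± 0.14 (adjusted p = 0.902 in limma). Ndufv2, the iron-sulfur partner of Ndufv1, ran from 10.69 on chronic 2 to 11.41 on chronic 1, so the chronic arrays alone spanned the whole range of the gene. Ndufs3, a scaffold of the ubiquinone module, ran from 10.20 on control 3 to 11.04 on control 2, and both extremes were control arrays. Ndufs1, the large iron-sulfur subunit, ran from 9.13 on chronic 2 to 9.80 on control 1.

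The accessory subunits of the matrix arm surround this core and are needed for its stability; 9 of 9 were measured. Their median was 0.042, -0.027 and -0.069 in the 3 comparisons in the order above, and that in chronic against control turned to 0.089 without control 2 and to 0.010 without chronic 3. That in chronic against acute turned to 0.022 without the 3 arrays high in cortex genes, with acute 3 as the only acute array. Ndufs6 lay at 8.79, 8.90 and 8.43 in the controls, 8.82, 9.01 and 8.91 after acute MPTP and 8.75, 8.23 and 8.34 after chronic MPTP. The chronic arrays lay below the acute arrays without overlap, but the control arrays overlapped both. Its log2 fold change in chronic against acute MPTP was -0.47 ± 0.16, 1.39-fold lower and the largest of the 43 genes in that comparison, with an adjusted p of 0.877 in limma and 0.278 with the replicate block. Against control it was -0.27 ± 0.16 (adjusted p = 0.953), and -0.16 without chronic 2.

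Ndufs4, whose loss in mice gives a Leigh-like encephalopathy, lay at 11.08, 10.98 and 10.75 in the controls, 11.10, 10.93 and 10.99 after acute MPTP and 11.11, 10.78 and 11.18 after chronic MPTP, and the 3 groups overlapped. Ndufa5, a small subunit of the ubiquinone module, was at 7.89, 7.96 and 8.01 in the controls, 8.06, 8.00 and 8.03 after acute MPTP and 8.19, 7.97 and 8.16 after chronic MPTP. Its chronic against control difference was 0.15 ± 0.09 (adjusted p = 0.945 in limma) and its groups overlapped on chronic 2. Ndufv3 had chronic arrays at 8.18, 8.17 and 7.95, below the acute arrays at 8.27, 8.24 and 8.44, while the controls at 8.05, 8.42 and 8.38 overlapped both. The difference from acute was -0.21 ± 0.12 (adjusted p = 0.877). Ndufa6, which docks a copy of the acyl carrier protein, had the largest spread within groups of the 43 genes, with a pooled SD of 0.51 and values from 8.40 on chronic 3 to 9.68 on chronic 1. The other members here, Ndufa2, Ndufa7, Ndufa9 and Ndufa12, had groups that overlapped in all 3 comparisons.

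Ndufab1 is the mitochondrial acyl carrier protein, which serves fatty acid and lipoate synthesis and is also built into complex I. It lay at 9.38, 8.95 and 9.21 in the controls, 9.54, 9.003 and 9.30 after acute MPTP and 9.58, 8.97 and 9.38 after chronic MPTP. The order of arrays 1, 3 and 2 recurred in every group, and the groups overlapped throughout. On a second probe set of Ndufab1 array 2 was again the lowest of each group, but control 3 (9.38) lay above control 1 (9.27).

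The accessory subunits of the membrane arm brace the proton channels, and 18 of 20 on the list were measured; Ndufb1 and Ndufb4 were not analysed here, the latter because its probe sets carry more than 1 symbol. Their median was -0.0050 in acute against control, -0.121 in chronic against control and -0.126 in chronic against acute MPTP. The first turned to 0.012 without control 2 and to 0.015 without acute 3. Of the 18, 15 lay below 0 in chronic against control and 13 in chronic against acute. The 2 medians were -0.036 and -0.066 without chronic 2, and -0.218 and -0.197 with the tissue covariates. No member passed the adjusted threshold.

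Ndufa8, a cysteine-rich subunit on the intermembrane side, lay at 10.04, 10.40 and 10.23 in the controls, 10.07, 10.50 and 10.43 after acute MPTP and 10.03, 9.89 and 10.08 after chronic MPTP. All 3 groups overlapped, since control 1 and acute 1 lay among the chronic values. Its chronic against acute difference was -0.33 ± 0.14 (adjusted p = 0.877 in limma), and against control -0.22 ± 0.14 (adjusted p = 0.953), or -0.13 without control 2. Ndufb7, another cysteine-rich subunit of that side, was the only one of the 18 with chronic and acute groups that did not overlap, at 8.55, 8.57 and 8.53 against 8.61, 8.84 and 8.67, a difference of -0.15 ± 0.10 (adjusted p = 0.877). Its controls, at 8.48, 8.75 and 8.73, overlapped both.

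Ndufb8, used in immunoblots as a marker of assembled complex I, lay at 9.50, 9.76 and 9.86 in the controls, 9.77, 9.63 and 9.58 after acute MPTP and 9.63, 9.33 and 9.44 after chronic MPTP. Its chronic against control difference of -0.24 ± 0.12 had an adjusted p of 0.926 in limma, and the groups overlapped through control 1. Ndufs5 differed by -0.19 ± 0.11 in that comparison (adjusted p = 0.952), also with overlap. Ndufb5 and Ndufb11 stood on the lower side of acute against control at -0.09 ± 0.13 and -0.05 ± 0.08 (both adjusted p = 1), and Ndufb3 had 0.23 ± 0.14 in chronic against control (adjusted p = 0.953). Ndufb6 ran from 10.21 on chronic 3 to 11.29 on control 1 and Ndufa11 from 9.57 on chronic 3 to 10.77 on control 2, with pooled SDs of 0.46 and 0.41. Groups overlapped in all 3 comparisons for these and for the remaining members, Ndufa1, Ndufa3, Ndufa10, Ndufa13, Ndufb2, Ndufb9, Ndufb10, Ndufc1 and Ndufc2.

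Ndufa4 was long counted among complex I subunits and is now placed in complex IV. It lay at 10.14, 9.74 and 9.83 in the controls, 10.29, 9.85 and 9.89 after acute MPTP and 9.98, 9.41 and 9.74 after chronic MPTP, with groups that overlapped. The differences were 0.11 ± 0.18, -0.19 ± 0.18 and -0.30 ± 0.18 in the 3 comparisons, with adjusted p of 1, 0.968 and 0.877 in limma. Without chronic 2 the last 2 were -0.04 and -0.15. With the replicate number as a block their adjusted p in limma was 0.369 and 0.250. Each chronic array of Ndufa4 lay below the control and the acute array of the same number. Ndufa4l2, its paralogue and a gene induced by the hypoxia factor HIF-1, lay at 6.29, 6.34 and 6.43 in the controls, 6.47, 6.43 and 6.39 after acute MPTP and 6.49, 6.60 and 6.57 after chronic MPTP. Its chronic arrays lay above all others. The difference was 0.20 ± 0.08 against control (adjusted p = 0.898 in limma) and 0.13 ± 0.08 against acute (adjusted p = 0.877), on a probe set with low signal.

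The assembly factors named Ndufaf build the modules and leave the finished enzyme, and 7 of 8 were measured; Ndufaf8 was not analysed here. Their median was -0.0056, -0.031 and -0.025 in the 3 comparisons. The first turned to 0.029 without control 1 and to 0.043 without control 2, and the second to 0.0099 without control 2 and to 0.041 without chronic 2. Ndufaf3 escorts an early intermediate of the ubiquinone module together with Ndufaf4. In the fit without the replicate block it had the smallest p of all 43 genes in both comparisons with the chronic group. With the block Ndufa4 had the same adjusted p as Ndufaf3 in chronic against acute, 0.250 in limma. The log2 intensity of Ndufaf3 was 10.55, 10.67 and 10.68 in the controls, 10.58, 10.65 and 10.59 after acute MPTP and 10.42, 10.26 and 10.19 after chronic MPTP. The 3 chronic arrays lay below the other 6, which overlapped each other. Group means were 10.63 ± 0.07, 10.61 ± 0.03 and 10.29 ± 0.12 (SD, n = 3).

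The log2 fold change of Ndufaf3 was -0.34 ± 0.09 in chronic against control, 1.27-fold lower with a 95% interval from -0.54 to -0.15, and -0.32 ± 0.09 in chronic against acute MPTP. Neither passed over all probe sets (adjusted p = 0.876 and 0.877 in limma, 0.255 and 0.250 with the replicate block), and the two-sided exact permutation p was 0.1 for both, the smallest that 3 arrays against 3 allow. Leaving out single arrays moved the values between -0.41 and -0.29 and between -0.38 and -0.27. In acute against control the difference was -0.03 ± 0.09 (adjusted p = 1). Ndufaf4, its partner, lay at 7.71, 7.77 and 7.62 in the controls, 7.70, 7.76 and 7.71 after acute MPTP and 7.25, 7.87 and 7.84 after chronic MPTP, so chronic 1 was lowest and the other 2 chronic arrays highest. Ndufaf2, a late assembly factor related to Ndufa12, differed by 0.15 ± 0.11 in chronic against control (adjusted p = 0.959), and by -0.00916 with the tissue covariates. Ndufaf7, a methyltransferase, had the smallest spread within groups of the 43, with a pooled SD of 0.06 and values between 7.41 and 7.59. Groups overlapped in all comparisons for the factors other than Ndufaf3, among them Ndufaf1, Ndufaf5 and Ndufaf6.

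Across the 43 genes, groups that did not overlap were found for 2 genes lower and 1 higher in chronic against control (Ndufaf3, Ndufv1 and Ndufa4l2) and for 5 lower and 1 higher in chronic against acute MPTP. The shares of all probe sets were 6.55% in the former comparison (3.67% lower, 2.88% higher) and 8.63% in the latter (5.01% lower, 3.61% higher). The genes with an unadjusted p under 0.05 were the same 3 in chronic against control, and Ndufaf3, Ndufs6, Ndufv1 and Ndufa8 in chronic against acute. The counts moved with single arrays, as did those over all probe sets. In chronic against control the count was 8 of 43 without chronic 1 (18.6%, against 7.87% of all probe sets in that fit) and 1 without control 2 or without chronic 3 (2.33%, against 7.48% and 3.58%). It was 2 (4.65%) without chronic 2, acute 1, acute 2 or acute 3, where the shares of all ran from 4.71% to 6.91%. Without control 1 or control 3 it was 3 (6.98%, against 4.38% and 2.85%). In chronic against acute it was 6 without chronic 1 (14%, against 8.45%) and 1 without acute 2 or chronic 2 (2.33%, against 2.38% and 6.16%). Without control 1, control 2 or acute 1 it was 4 (9.3%, against 5.27%, 4.67% and 3.51%). Without control 3, acute 3 or chronic 3 it was 3 (6.98%, against 4.63%, 5.97% and 3.07%). When the 3 arrays high in cortex genes were left out the counts were 2, 4 and 1 (4.65%, 9.3% and 2.33%) in the 3 comparisons, against 0.569%, 3.27% and 2.1% of all probe sets. When the 2 arrays high in choroid plexus genes were left out they were 0, 3 and 2 (0%, 6.98% and 4.65%), against 0.686%, 2.41% and 5.61%.

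**Figure D3:**
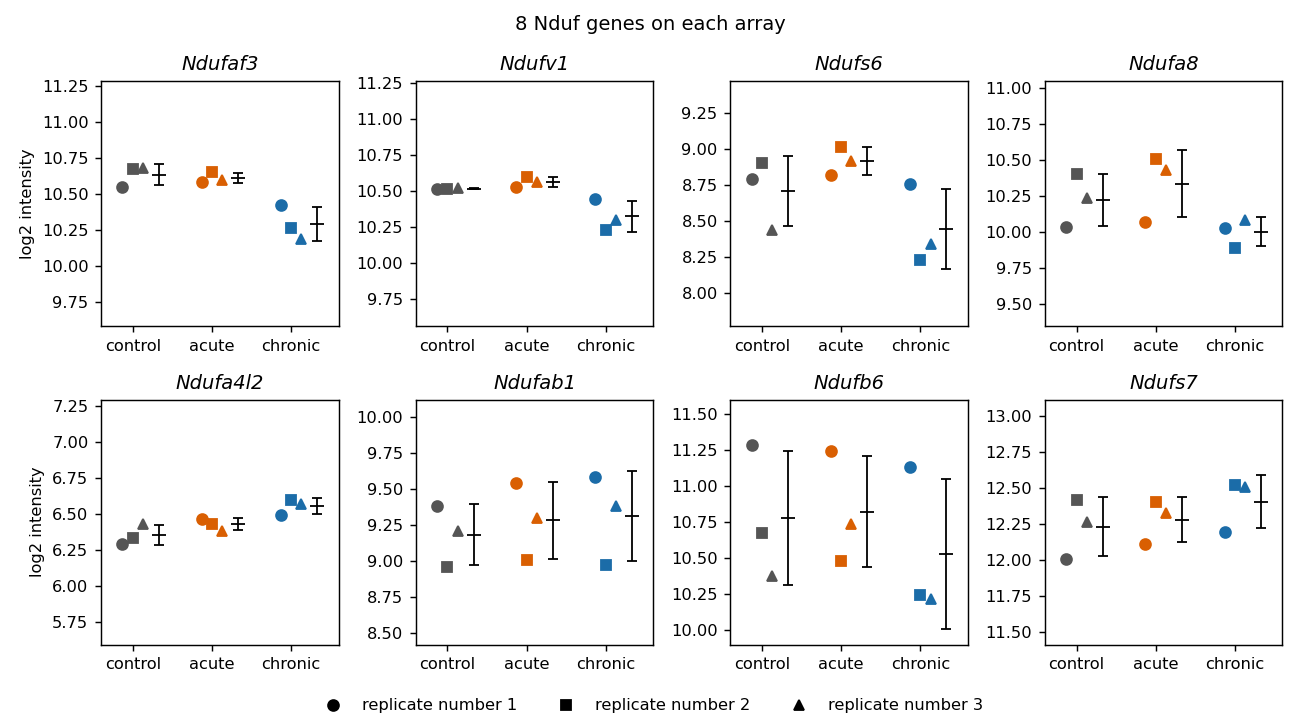
Log2 intensity of 8 Nduf genes on each array; the symbol gives the replicate number in the title of the array, and the black marks the mean and SD of 3 arrays. In Ndufaf3 and Ndufv1 the chronic arrays lie below the rest, while the array numbered 1 is the highest of each group in Ndufab1 and Ndufb6 and the lowest in Ndufs7.

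For most Nduf genes the arrays differed more by replicate number than by treatment. For 31 of 43 genes the means of arrays numbered 1, 2 and 3 spread wider than the means of the 3 groups. The median range was 0.22 log2 units by number and 0.15 by group, and the replicate number took a median of 44.7% of a gene's sum of squares against 17.2% for the group. The same holds for all probe sets, of which 71.3% spread wider by number (median shares of 45.1% and 19.1%). Ndufab1 had the largest share by number, 91.6%, with means of 9.50, 8.98 and 9.29 for the numbers 1, 2 and 3. Ndufv2 had 88.8% and Ndufa2 88.5%, in opposite directions: Ndufv2 was highest and Ndufa2 lowest on the array numbered 1 in each group. At the other end, Ndufaf3 had 84.2% of its sum of squares between groups and 1.05% between numbers, Ndufv1 78.5% and 3.06%, and Ndufa4l2 75.7% and 4.32%.

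The array numbered 1 was the highest of its group in all 3 groups for 11 of 43 Nduf genes, or 25.6%, against 12.4% of all probe sets, and the lowest in all 3 for 5, or 11.6%, against 18.8%. Those highest were Ndufab1, Ndufv2, Ndufb6, Ndufs1, Ndufc2, Ndufa6, Ndufa4, Ndufb2, Ndufb9, Ndufaf6 and Ndufaf1. Those lowest were Ndufa2, Ndufs7, Ndufc1, Ndufa1 and Ndufa9. Among 36 genes of complexes II to V the counts were 11 and 6. The labels do not say what the number stands for.

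**Figure D4:**
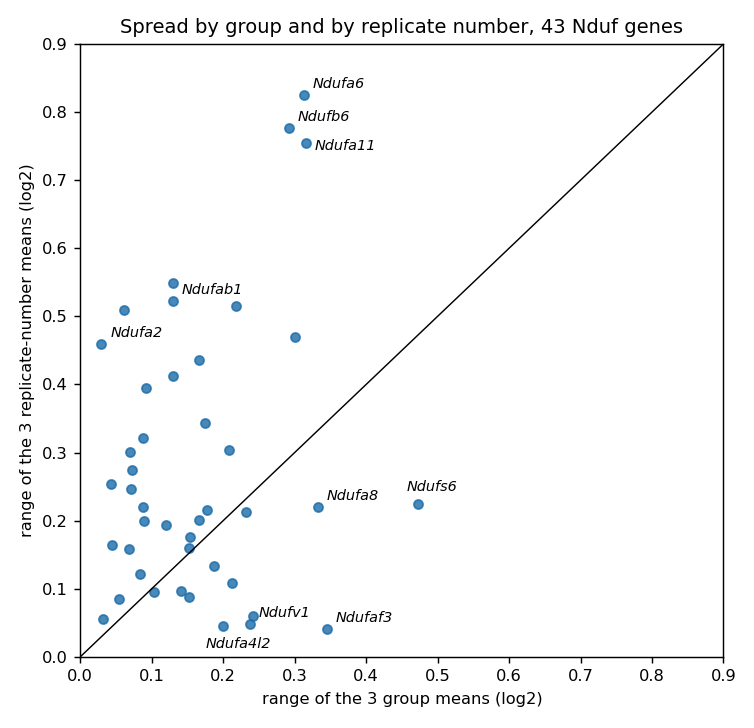
Range of the 3 group means (horizontal) against range of the 3 replicate-number means (vertical) for the 43 Nduf genes, both in log2 units, with the line of equality. Above the line lie 31 genes, among them Ndufa6, Ndufb6 and Ndufa11, and below it Ndufs6, Ndufaf3, Ndufa8, Ndufv1 and Ndufa4l2.

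**Figure D5:**
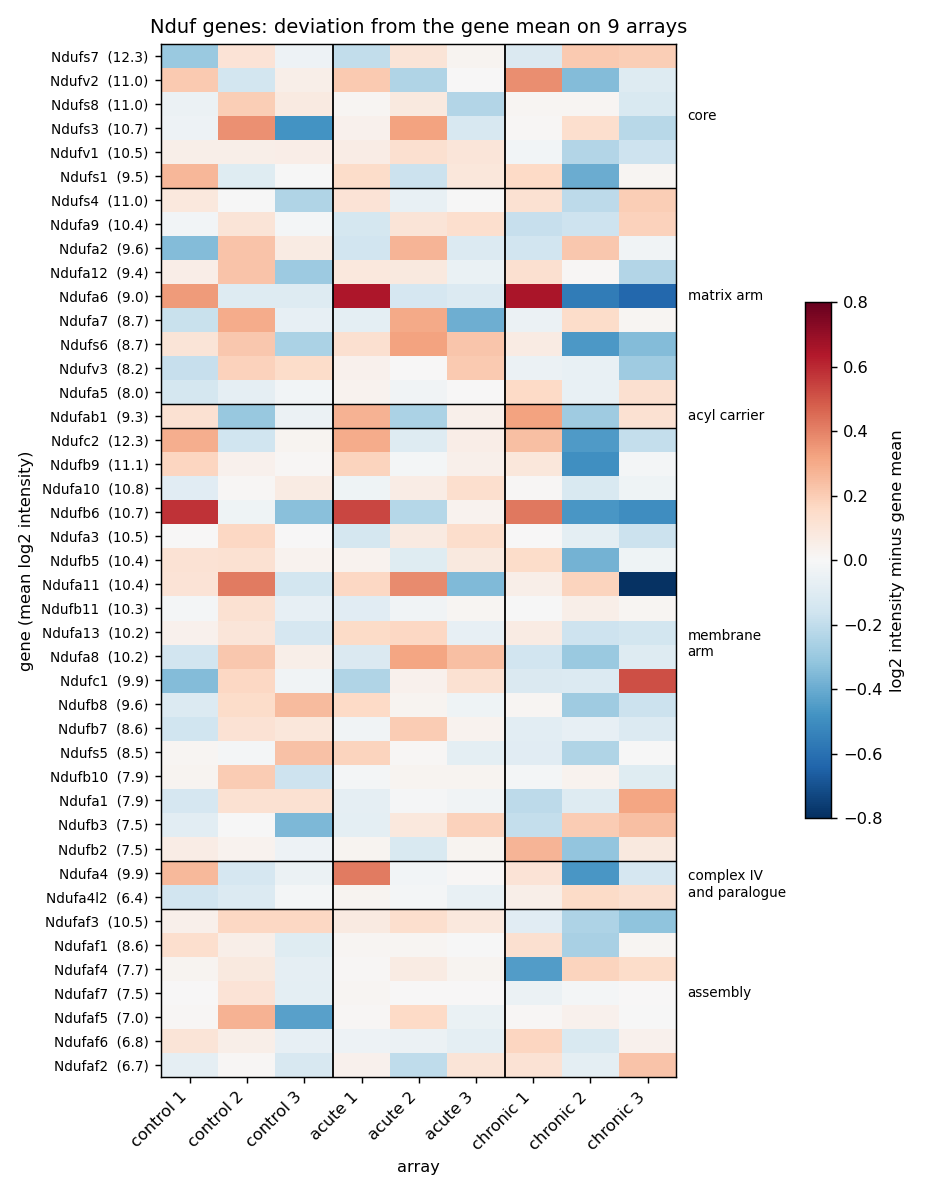
Deviation of each Nduf gene from its mean over the 9 arrays (colour, log2), with genes ordered by the part of the enzyme and the mean log2 intensity in brackets. In rows such as Ndufb6 and Ndufab1 the array numbered 1 is the highest of every group, and chronic 2 holds the lowest value of 16 of 43 genes.

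For 5 Nduf genes a second probe set was measured, and its groups overlapped in all 3 comparisons for each of them. The second probe set of Ndufs3 ran from 10.09 on control 3 to 10.94 on control 2, the same 2 arrays that were lowest and highest in the first. That of Ndufa11 had group means of 9.80, 9.80 and 9.61 in control, acute and chronic, that of Ndufab1 9.19, 9.24 and 9.27, that of Ndufb11 9.87, 9.85 and 9.91 and that of Ndufc1 9.53, 9.60 and 9.67. Whether a probe set also binds RNA of a near-identical copy of its gene was not tested.

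Other genes of the pathway were taken from lists. Of 10 other complex I assembly factors 0 passed over all probe sets, with 6, 5 and 2 above 0 in the 3 comparisons. Nubpl, which inserts iron-sulfur clusters into complex I, had 0.35 in chronic against acute (adjusted p = 0.877 in limma), and Timmdc1, a membrane arm factor, -0.38 (adjusted p = 0.877). Of 15 regulators of mitochondrial gene expression 0 passed, with medians of -0.020, 0.020 and 0.050. Ppargc1a, the coactivator PGC-1alpha that drives mitochondrial biogenesis, was 0.16 in chronic against control (adjusted p = 0.968), and Ppargc1b 0.39 (adjusted p = 0.926). Complexes II to V, with 36 genes, had 0 past the threshold and medians of 0.027, -0.082 and -0.104, side by side with 0.029, -0.062 and -0.071 for the Nduf genes. The first of the former turned to -0.014 without control 3, -0.0066 without acute 1 and -0.023 with the tissue covariates. Without the 3 arrays high in cortex markers, with acute 3 as the only acute array, it was -0.0079 and the last was -0.051. Of 12 genes of other NADH and quinone reactions 0 passed; Mdh1, cytosolic malate dehydrogenase, had the smallest p, at -0.26 in chronic against acute (adjusted p = 0.877). The 7 subunits encoded in mitochondrial DNA were not analysed here.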

How the data were processed

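Total RNA of mouse striatum was labelled from 200 ng and hybridised to 9 single-colour arrays, per the labels' protocols. The deposited table holds log2 intensities, 1 value per probe set and array, a scale read from the values (array medians from 6.85 to 6.90). The authors' background correction, normalization and summary are not given in the sources used here, so they were used without further scaling. Samples were grouped by their titles.

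Of 28815 probe sets, 21780 had 1 gene symbol, 1605 several and 5430 none; of the first kind, those whose mean reached the 25th percentile (log2 5.89) were tested, 16335 in all. A mean per group was fitted with limma 3.58.1 in R 4.3.3 to all 9 arrays (6 residual degrees of freedom) and moderated by eBayes, with two-sided tests and Benjamini-Hochberg adjustment over all probe sets of a comparison. The fit gave the standard errors and the 95% intervals. The code was tested on simulated data.

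The replicate numbers count as pairing the arrays: deviations from group means correlated across probe sets in all 9 same-numbered pairs (r from 0.157 to 0.673), against -0.609 to 0.184 in 18 others. The pairing comes from the values, not the labels, and each test was repeated with the number as a block, which leaves 4 residual degrees of freedom.

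Named genes were, in each comparison, those past the threshold (0) and the 4 with the smallest p in each direction, besides the core subunits, Ndufs4, Ndufab1, Ndufa4, Ndufa4l2, those of extreme mean or spread and those with a second probe set, 27 in all; of other lists, the 2 with the smallest p in any comparison. Ndufb7, Ndufv3, Ndufaf4 and Ndufa2 were chosen after their values were seen. The members, lists and tests were chosen with earlier results of these data known. Other alternatives were the filter, quantile normalization, an intensity trend, fitting 2 groups only, the mean over a gene's probe sets, the means of the cortex and the thalamus and hypothalamus lists as covariates, and each array left out; leaving out the arrays high in cortex or choroid plexus genes was chosen after seeing the data.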

Additional observations from a re-analysis of the deposited data

How the results depend on the processing

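The count of Nduf genes past the threshold was 0 in each comparison under every alternative run. The count of all probe sets past it in chronic against acute MPTP, 2 in the reported fit, was 1 without the filter and 1 when only the 2 groups were fitted. It was 0 with the tissue covariates, 0 without the arrays high in genes of the choroid plexus, and 1 to 5 with single arrays left out. In acute against control it was 1 when only the 2 groups were fitted and 0 to 1 with single arrays left out, and in chronic against control 0 to 2. The median of the Nduf genes moved by more than its spread between arrays within groups (a pooled SD of 0.058) in some alternatives. With the tissue covariates it went to -0.167 in chronic against control and -0.136 in chronic against acute. With these and the replicate block together it went to -0.198 and -0.152. Without chronic 1 it went to -0.130 in chronic against acute. With single arrays left out it ran from -0.0071 to 0.053 in acute against control, from -0.108 to -0.033 in chronic against control and from -0.130 to -0.041 in chronic against acute. The cause was not tested. The replicate block changed no call among Nduf genes; with it the smallest adjusted p of a named gene was 0.250, the smallest under any alternative.

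Of 714 values of 36 named gene results under 20 alternatives, 704 kept their sign and none passed the threshold. With the tissue covariates Ndufaf2 turned to -0.00916 in chronic against control and -0.049 in chronic against acute, and with covariates and block to -0.113 and -0.072; in acute against control Ndufaf3 then turned to 0.039. In that comparison Ndufb11 turned to 0.0047 without control 2 and Ndufa4 to -0.032 without acute 1 (ranges with single arrays left out from -0.087 to 0.0047 and from -0.032 to 0.226), Ndufaf3 to 0.0046 without the arrays high in choroid plexus genes and Ndufb5 to 0.0034 without those high in cortex genes. Without these, with acute 3 as the only acute array, Ndufaf2 was -0.015 in chronic against acute. Precision is limited by the 3 arrays in each group.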

Other observations

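Exactly repeated values were common in the deposited table. Of 16335 probe sets tested, 6278 (38.4%) held the same value on at least 2 of the 9 arrays, and 13 of 43 Nduf genes did (30.2%). Among these were Ndufaf7 with 3 repeats and Ndufv1 and Ndufa4l2 with 1 each. In 288 probe sets (1.76%), none of them an Nduf gene, the 3 arrays of a group were identical. Ppp1r1b, the striatal phosphatase inhibitor DARPP-32, was listed at 12.11 on all 3 acute arrays. The effect of such repeats on the spread within groups was not tested.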
